A study of Mus musculus with 2 samples.

Results

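The genes described here encode subunits of Polycomb repressive complex 2 (PRC2) and were measured in mouse embryonic stem (ES) cells with and without induction of CTCFL, the germ cell paralog of CTCF. They are the 10 genes of a fixed list of core and accessory subunits, and every probe set whose only platform gene symbol was one of these names was taken. This gave 12 probe sets for 10 of the 19938 genes that could be named on the array, with Eed and Rbbp7 read by 2 probe sets each. Both groups were ES cells carrying the reverse tetracycline transactivator at ROSA26 and a TRE-driven transgene for mouse CTCFL fused to V5 and GFP, grown with leukemia inhibitory factor on gelatin. The induced array held RNA of cells that received doxycycline for 3 days and were sorted for GFP. Cells that had not received doxycycline and were not sorted gave the RNA of the non-induced array. Whether the cells came from 1 transfected clone is not stated. There was 1 array per group, so no error and no test can be given, the values describe these arrays, and the effects of doxycycline, sorting and CTCFL cannot be told apart.

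PRC2 methylates the K27 residue of histone H3, a mark of silenced developmental genes in ES cells. EZH2 or its paralog EZH1 holds the catalytic SET domain but is active only when bound to EED, which recognises the mark and stimulates the enzyme, and to SUZ12, on which the complex is assembled. RBBP4 or RBBP7 binds histones, and accessory subunits define the forms of the complex, with MTF2 or PHF19 in PRC2.1 and JARID2 with AEBP2 in PRC2.2.

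On these arrays the levels of the PRC2 genes were close to each other in the induced and the non-induced cells, with the widest difference at Eed, whose brighter probe set was 1.69-fold lower in the induced array. This value rests on 1 of 2 probe sets, since the other, which lay below the median of all gene values (log2 6.36, the floor under which differences were not counted), had a difference of 0.15 in log2, and with their mean Eed (-0.30) lay within the range of the other PRC2 genes. Suz12 was 1.31-fold lower and Aebp2 1.24-fold lower. The catalytic gene Ezh2 and the histone-binding gene Rbbp4 were 1.05-fold and 1.04-fold higher as deposited. Their differences lay below 0 once both arrays were centred on a common median. The other 8 genes were below 0 under every scaling tried, but Phf19 was close to 0 (-0.003 as deposited, -0.0007 after a second quantile normalization). In bulk RNA, fewer cells that express a gene and less of its RNA per cell cannot be told apart.

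The transgene was examined first as a check of the labels. Ctcfl had a log2 level of 9.44 in induced and 5.99 in non-induced cells, the widest upward difference of all genes measured. The defining ES cell genes were above the floor in both arrays. Pou5f1 was at 11.98 in induced and 11.96 in non-induced cells, Sox2 at 10.82 and 10.83, and Nanog at 10.86 and 11.08. All 20 ES cell identity markers examined reached the floor. The widest differences among them were those of Dnmt3l, a cofactor of DNA methyltransferases, at 8.80 in induced and 9.64 in non-induced cells (-0.84), Fbxo15 at 8.86 and 9.54 (-0.68) and the transcription factor gene Tbx3 at 8.53 and 7.999 (0.53).

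The promoters are shown as features that played no part in the choice of the genes, and no searched motif was present in all of them. RefSeq (GRCm38.p6) held 14 windows for the 10 genes, each running from 250 bases before to 50 bases after a transcription start. Binding letters of E2F, the factor family that drives genes of DNA replication, were searched as TTTCCCGC, TTTGGCGC and TTTCGCGC on both strands. They were found in 3 of the 14 windows, those of Ezh2, Suz12 and Phf19, against 1.84% of all 32851 windows. In the stretches below these letters are in capitals, and positions are counted from the transcription start, with negative positions before it. Eed is shown as the PRC2 gene with the widest difference on the arrays, and its window held none of the E2F letters.
Ezh2, -110 to 15, chr6:47595016-47595140, minus strand: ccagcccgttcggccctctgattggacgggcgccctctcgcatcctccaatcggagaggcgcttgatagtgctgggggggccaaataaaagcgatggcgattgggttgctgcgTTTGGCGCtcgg
Suz12, -250 to -150, chr11:79992856-79992956, plus strand: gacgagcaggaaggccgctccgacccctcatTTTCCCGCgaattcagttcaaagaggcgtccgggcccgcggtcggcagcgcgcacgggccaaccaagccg
Phf19, -250 to -150, chr2:34914126-34914226, minus strand: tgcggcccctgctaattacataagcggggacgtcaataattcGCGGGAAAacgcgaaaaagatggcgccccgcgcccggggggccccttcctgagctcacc
Eed, -150 to -1, chr7:89980977-89981126, minus strand: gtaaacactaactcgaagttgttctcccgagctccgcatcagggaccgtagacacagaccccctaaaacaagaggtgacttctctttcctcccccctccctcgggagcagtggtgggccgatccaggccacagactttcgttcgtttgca

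The match lay at positions 4 to 11 in Ezh2 and at -219 to -212 in Suz12, both in the sense shown, and at -208 to -201 in Phf19 as the reverse complement. On the arrays the differences of these 3 genes were 0.07 for Ezh2, -0.39 for Suz12 and -0.003 for Phf19. Any part of the motif in them was not tested. Letters from the middle of the CTCF motif (AGGGGGC or AGGTGGC or AGATGGC or AGAGGGC, both strands) were present in 6 of 14 windows (Aebp2, Ezh1, Ezh2, Jarid2, Phf19 and Rbbp4) and in 27.6% of all windows. Such cores are short and common, and a match is no evidence of a bound site. CCAAT, the letters bound by NF-Y, was present in 9 of 14 windows of 8 genes and in 37.4% of all windows. The windows of the PRC2 genes had a median GC content of 63.5% (45.7% to 75.7%), against 52.7% over all windows, and a median of 23.5 CpG dinucleotides, against 7. Of the 14 windows 11 were above the median of all windows in each measure, and the others were 2 of Aebp2 and 1 of Mtf2. The Eed window had 54.7% GC and 17 CpG dinucleotides. Each E2F form searched holds a CpG. The E2F share of 1.84% over all windows was not matched for GC or CpG content, and no enrichment was tested.

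Of the catalytic subunit genes, Ezh2 had a log2 level of 10.07 in induced and 10.001 in non-induced cells, a difference of 0.07. Ezh1, the paralog of non-dividing tissues, was at 6.66 in induced and 6.81 in non-induced cells, a difference of -0.16. The difference of Ezh2 thus lay 0.23 above that of Ezh1. This gap was 0.37 after the trend on signal level was removed by lowess and 0.39 after a second quantile normalization. With an offset of 32 on the linear scale it was 0.19.

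Both genes of the core scaffold, Eed and Suz12, were lower in the induced array, and as deposited they had the widest differences of the 10, although Aebp2 (-0.32 by lowess, -0.31 by quantiles) passed Suz12 (-0.30 and -0.26) under these scalings. Eed was at 10.39 in induced and 11.15 in non-induced cells, a difference of -0.75. Of the genes at or above the floor 4.37% had a lower difference than Eed. A second probe set of Eed was at 4.76 in induced and 4.61 in non-induced cells, so it lay below the floor in both and had a difference of 0.15 in the other direction. With the mean of both probe sets the difference of Eed was -0.30. Suz12 was at 9.13 in induced and 9.52 in non-induced cells, a difference of -0.39, and 17.1% of genes at or above the floor had a lower difference.

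The histone-binding subunits RBBP4 and RBBP7 are also subunits of the NuRD and SIN3 deacetylase complexes and of histone chaperones. Rbbp4 was at 10.36 in induced and 10.29 in non-induced cells, a difference of 0.06. Rbbp7 was at 10.95 in induced and 11.08 in non-induced cells, a difference of -0.13. Its other probe set was at 10.53 in induced and 10.58 in non-induced cells, a difference of -0.04. Rbbp7 is the only X-linked gene of the list, and the 305 X-linked genes at or above the floor had a median difference of -0.18. Any part of X linkage in the difference of Rbbp7, which was -0.03 after a second quantile normalization, was not tested. The differences of Rbbp4 and Rbbp7 were 0.20 apart, or 0.15 with the mean of the Rbbp7 probe sets.

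**Figure D1:**
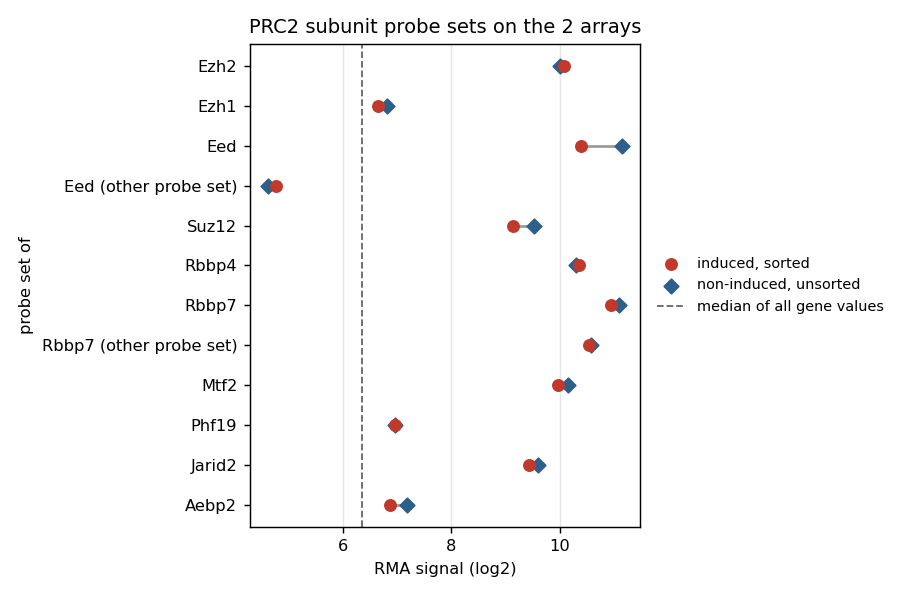
RMA signal (log2, x axis) of the 12 probe sets of the PRC2 genes (y axis, by role) in the induced, sorted cells (circles) and the non-induced, unsorted cells (diamonds), 1 array each, joined by a line; the floor (6.36) is dashed. The widest gap is that of the brighter Eed probe set (10.39 against 11.15), while its other probe set lies below the dashed line with the order of the arrays turned round.

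Among the accessory subunits, MTF2 and PHF19 are Polycomb-like proteins that bring PRC2.1 to DNA rich in CpG. Mtf2 was at 9.96 in induced and 10.15 in non-induced cells, a difference of -0.19. Phf19 was at 6.96 in both arrays, with a difference of 0.00. The difference of Mtf2 minus that of Phf19 was -0.18, or -0.08 by lowess and -0.09 by quantiles. JARID2 and AEBP2 bind ubiquitinated histone H2A, the product of PRC1, and so link PRC2.2 to it. Jarid2 was at 9.44 in induced and 9.61 in non-induced cells, a difference of -0.17. Aebp2 was at 6.87 in induced and 7.18 in non-induced cells, a difference of -0.31. The 2 genes of PRC2.2 had a mean difference of -0.24, and the 2 of PRC2.1 a mean of -0.10. Aebp2 and Phf19 set these means apart, since Jarid2 (-0.17) and Mtf2 (-0.19) were close to each other. Phf19, Ezh1 and Aebp2 lay within log2 1 of the floor, where RMA can compress differences, which was not tested here.

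All 10 PRC2 genes reached the floor in both arrays, Eed and Rbbp7 by their brighter probe set. Among the 10697 genes that reached the floor, a difference of at least log2 1 upward in the induced array was found for 0.477% and downward for 1.79%, and 0 of the 10 PRC2 genes were past this size in either direction. These shares stood for 51 higher and 191 lower genes, or 25 and 268 after centring and 10 and 108 with an offset on the linear scale. At a smaller size of log2 0.58, 1 PRC2 gene, Eed, was lower, where 8.45% of all genes were, and 0 were higher, where 5.31% of all genes were. Differences below 0 were found for 8 of the 10, where 53.4% of all genes had them, and for all 10 after centring, which lowers every gene alike and gave 64.4% of all genes below 0. The 8 include Phf19 at -0.003, which is close to 0. The median difference of the 10 genes was -0.16, against -0.03 for all genes at or above the floor. It was -0.09 after removal of the trend on level, -0.06 after a second quantile normalization and -0.26 after centring, against 0.03 and -0.13 for all genes at or above the floor under the last 2 of these. The middle 50% of genes at or above the floor ran from -0.28 to 0.22, and 7 of the 10 PRC2 genes lay in this range. Eed, Suz12 and Aebp2 lay below it, and within the range of the middle 95% of genes, -0.89 to 0.72.

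Genes read by several probe sets show how far the probes of 1 gene disagree on these arrays. For 589 genes with 2 probe sets at or above the floor, the differences of the 2 probe sets lay apart by a median of 0.12 and by up to 0.82 in 95% of genes. The gap was 0.09 for Rbbp7. For Eed, with 1 probe set below the floor, it was 0.90, above 0.82. This gap is no replicate error, since both probe sets read the same RNA, and it gives no error range for a difference between the arrays. The PRC2 differences are set beside it as a description of size only. The differences of Phf19, Rbbp4 and Ezh2 were smaller in size than the median gap. Those of all PRC2 genes, the widest being Eed at -0.75, were smaller in size than the gap of 0.82.

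**Figure D2:**
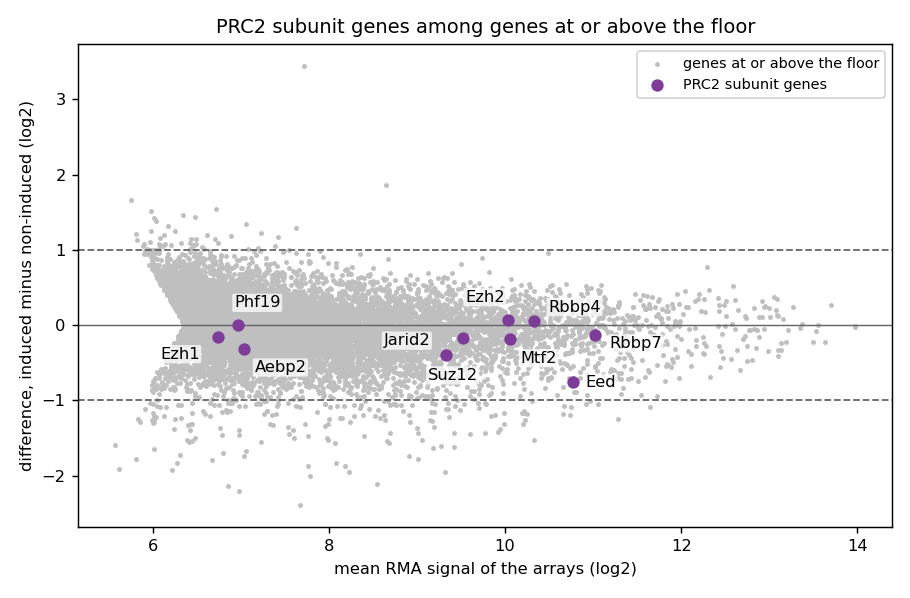
Difference, induced minus non-induced (log2, y axis), against the mean RMA signal of the arrays (log2, x axis) for 10697 genes at or above the floor (grey) and the 10 PRC2 genes (purple, named); dashed lines mark the size of log2 1. All PRC2 genes lie between the dashed lines, and Eed at -0.75 is the lowest of them.

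Other partners of PRC2 and the complexes that act with it were examined as lists. Beside their counts past log2 1 stand shares of 0.477% higher and 1.79% lower among all genes at or above the floor. Medians after the trend on level was removed by lowess and after a second quantile normalization are given for each list beside that as deposited, while centring lowered every median by 0.10, that of all genes included. Of 8 further partners, 6 reached the floor, 0 were past log2 1 and the median over all 8 was -0.09 (-0.16 by lowess, -0.13 by quantiles). Of the 6 at or above the floor 4 were below 0, against 53.4% of all such genes. The median of these 6 was -0.26 as deposited. Elongin C and elongin B, which bind the PRC2.1 subunit EPOP, went opposite ways, with Eloc at 10.78 in induced and 11.44 in non-induced cells (-0.66) and Elob at 11.70 and 11.37 (0.34). Lcorl, which encodes an alternative PRC2.1 partner, was at 6.12 and 6.51 (-0.40).

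PRC1 ubiquitinates histone H2A at genes that PRC2 marks. Of its 26 measured subunit genes 22 reached the floor, 0 were past log2 1, 15 were below 0 and the median was -0.10 (-0.13 by lowess, -0.12 by quantiles, and -0.17 with the mean of probe sets). Of the 22 at or above the floor 12 were below 0, against 53.4% of all such genes. The widest difference was that of Bmi1, which encodes a RING finger subunit of canonical PRC1, at 6.89 in induced and 7.68 in non-induced cells (-0.79). Kdm2b, whose CXXC domain binds unmethylated CpG, was at 8.46 and 9.03 (-0.57), and Pcgf1, its partner in variant PRC1, at 7.55 and 8.08 (-0.53).

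Enzymes that remove Polycomb marks were next. Of 12 measured genes for H3K27 demethylases and the H2A deubiquitinase PR-DUB, 10 were below 0, 0 were past log2 1 and the median was -0.13 (-0.05 by lowess, -0.02 by quantiles). Of the 11 at or above the floor 9 were below 0, against 53.4% of all such genes. Kdm6a, an X-linked H3K27 demethylase gene, was at 7.66 in induced and 8.32 in non-induced cells (-0.67). Foxk1, which encodes a DNA-binding partner of PR-DUB, was at 7.33 and 6.70 (0.63), and Ogt, an X-linked glycosyltransferase gene, at 8.92 and 9.45 (-0.53).

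RBBP4 and RBBP7 also serve in deacetylase, remodelling and chaperone complexes. All 12 NuRD genes reached the floor, with 0 past log2 1 and a median of -0.10 (-0.02 by lowess), which turned to 0.02 by quantiles. Chd3, a NuRD helicase gene, was at 6.93 in induced and 6.51 in non-induced cells (0.42), Mbd2, a methyl-CpG binding protein gene, at 7.54 and 7.91 (-0.37) and Cdk2ap1 at 10.39 and 10.07 (0.32). Of 22 genes of the other RBBP4 and RBBP7 complexes 1 was lower by log2 1 or more, where 1.79% of all genes at or above the floor were. This was the X-linked Smarca1, which encodes the motor of the remodeller NURF, at 7.12 and 8.21 (-1.09). With the offset it was no longer past log2 1. Smarca5, its paralog, was at 10.17 and 10.87 (-0.70) and the SIN3 subunit gene Sap18 at 6.42 and 5.68 (0.74). The median of these 22 was -0.13 (-0.07 by lowess, -0.05 by quantiles).

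Ezh2 and Eed are known targets of E2F, and E2F target and proliferation genes were therefore compared. Of 23 measured, all at or above the floor, 15 were below 0, where 53.4% of all genes at or above the floor were. The median of -0.07 turned to 0.00 by lowess and 0.02 by quantiles. Of these genes 1 was lower by log2 1 or more, where 1.79% of all genes at or above the floor were. This was the cyclin gene Ccne2 at 8.30 in induced and 9.73 in non-induced cells (-1.43). Tyms, which encodes thymidylate synthase, was at 8.79 and 9.43 (-0.64) and Mki67, the proliferation marker, at 7.99 and 8.50 (-0.51).

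Developmental genes that carry the PRC2 mark in ES cells were examined last. Of 44 measured 20 reached the floor, and 0 of these were past log2 1. Of the 44, 30 were above 0 and 14 below, with a median of 0.20, while the median of all genes was 0.01. Of the 20 at or above the floor 4 were below 0, against 53.4% of all such genes. By log2 0.58 or more 3 of the 20 were higher and 2 lower, where 5.31% and 8.45% of all such genes were. The list median was 0.10 by lowess and 0.12 by quantiles, with all genes at 0.00 and 0.02, and 0.14 with the offset. After centring it was 0.11, with all genes at -0.09. Foxa2, an endoderm pioneer factor gene, was at 5.83 in induced and 6.68 in non-induced cells (-0.85), Cdkn2b, which encodes the cell cycle inhibitor p15, at 7.30 and 6.53 (0.77) and Hoxa13 at 6.39 and 5.70 (0.69). Markers of other cell types were set beside these values, and 0 of them were past log2 1 in either direction. Of 25 fibroblast and mesenchyme markers 20 were above 0, with a median difference of 0.37, a mean log2 level of 6.82 in induced and 6.50 in non-induced cells, and 16 at or above the floor. Their median was 0.32 by lowess and 0.33 by quantiles. Of the 16 at or above the floor 3 were below 0, against 53.4% of all such genes. By log2 0.58 or more 5 of the 16 were higher and 0 lower, against 5.31% and 8.45% of all such genes. The widest differences were those of the matricellular genes Ccn1, at 7.64 in induced and 6.70 in non-induced cells (0.94), and Thbs1, at 6.57 and 5.76 (0.81), and of Loxl1, a lysyl oxidase gene, at 6.42 and 5.56 (0.85). Of 17 endoderm markers 12 were above 0, with a median of 0.27 (0.16 by lowess, 0.17 by quantiles) and mean levels of 6.46 in induced and 6.29 in non-induced cells. Of the 10 at or above the floor 4 were below 0, against 53.4% of all such genes. By log2 0.58 or more 2 of the 10 were higher and 1 lower. Beside Foxa2 the widest were Hnf4a, a hepatocyte factor gene, at 6.77 in induced and 6.01 in non-induced cells (0.76) and the basement membrane collagen gene Col4a2 at 7.01 and 6.31 (0.70). Foxa2, Gata4, Gata6 and Sox17, 4 of the endoderm markers, are also in the developmental list. An array signal has no true 0, so absence of a marker cannot be read from it. The ES cell identity markers had a median of -0.13 (-0.04 by lowess, -0.01 by quantiles), with 14 of 20 below 0. Of all genes at or above the floor 53.4% were below 0. By log2 0.58 or more 0 of the 20 identity markers were higher and 2 lower. The part of these markers in the differences of the PRC2 genes and of the developmental genes was not tested.

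**Figure D3:**
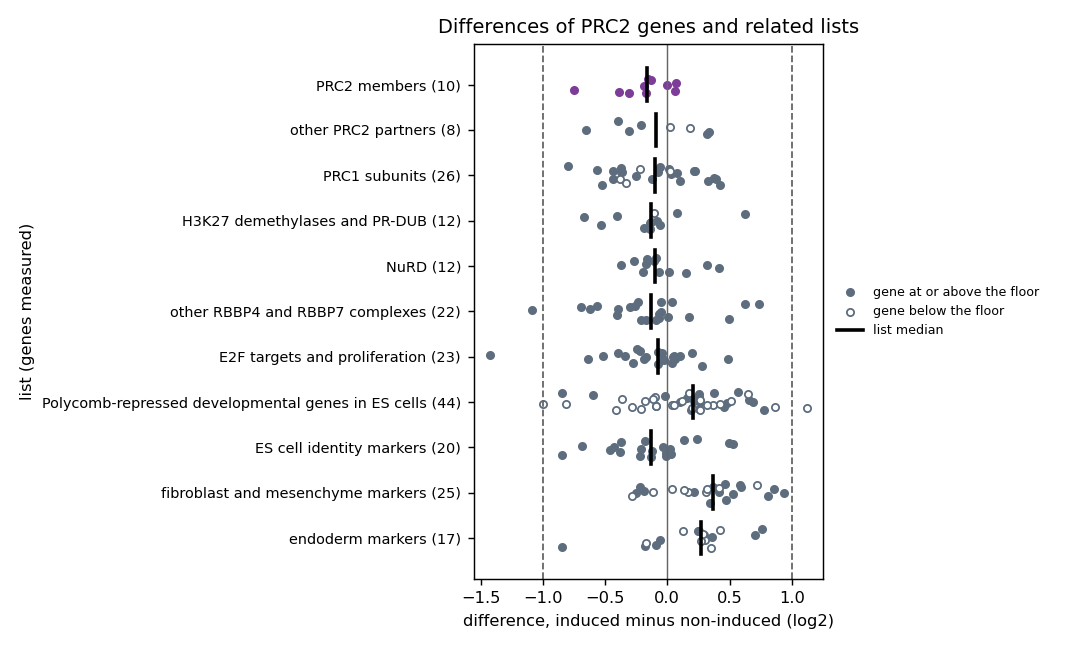
Difference, induced minus non-induced (log2, x axis), of each gene in the PRC2 list (purple) and 10 related lists (grey; number of measured genes in brackets), with genes below the floor as open circles, list medians as black bars and dashed lines at log2 1. The PRC2 median (-0.16) lies left of 0 with those of the other chromatin lists as deposited, and the fibroblast median (0.37) lies farthest right; after a second quantile normalization the NuRD and E2F medians were 0.02, and the E2F median was 0.00 by lowess.

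**Figure D4:**
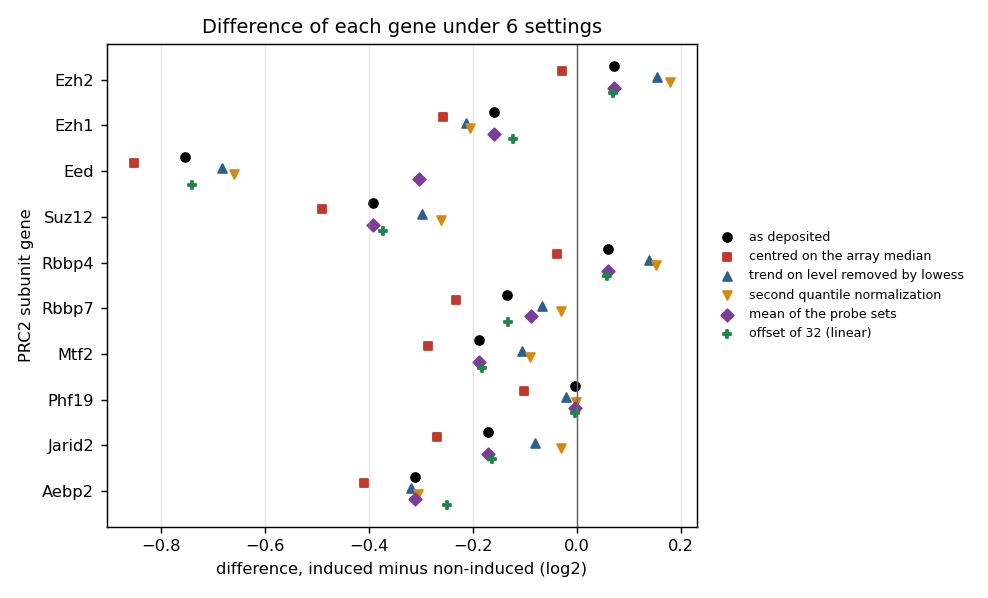
Difference, induced minus non-induced (log2, x axis), of the 10 PRC2 genes (y axis) with the values as deposited and under 5 alternatives (symbols). Eed is lowest under each setting but the mean of its probe sets (-0.30), where Suz12 (-0.39) and Aebp2 (-0.31) are lower, and Ezh2 and Rbbp4 are below 0 only after centring.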

How the data were processed

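Total RNA (300 ng per array) of 2 samples went onto Affymetrix Mouse Gene 1.0 ST arrays. The values deposited are log2 signals per probe set, which the authors computed by RMA (background correction, quantile normalization and summary over probes). Its software version and the annotation and build behind the probe sets were not given in the sources used here. Values ran between 1.36 and 14.5, from which the unit was taken as log2. Levels of different probe sets were not compared, since probes differ in response.

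Of 35557 probe sets 21789 had 1 symbol in the platform annotation, 1621 several and 12147 none; 21698 of those with 1 symbol matched RefSeq (GRCm38.p6) by gene identifier, from which current symbols and chromosomes were taken. Of the resulting 19938 genes 999 had more than 1 probe set, of which the one with the highest mean was taken. The floor was the median of all gene values (6.36), and counts took differences of log2 1 or more with the higher value at or above it. No probe set with several symbols named a PRC2 gene. All PRC2 genes, Ctcfl and, per context or marker list, the 3 genes with the widest difference at or above the floor were named; the genes nearest to Eed and Ezh2 in level, also in the rule, are not reported, since probe sets differ in response. Pou5f1, Sox2 and Nanog, as defining markers, and Gata4, Gata6 and Sox17, as shared by lists, were named outside the rule after their values were seen. Members and lists were chosen with earlier results of these data known.

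Alternatives were a size of log2 0.58, a floor at the 75th percentile or none, an added linear offset of 32, averaged probe sets, centring on array medians, removal of the trend on level by lowess (fraction 0.3) and repeated quantile normalization. Arrays give no counting error, and their number limits the precision. The steps were tested on simulated data, in which the planted gene shifts were wider than any PRC2 difference. That test does not show how well differences of the size reported are recovered. Python 3.11.15, numpy 2.4.6, pandas 2.3.3, statsmodels 0.14.6 and matplotlib 3.10.9 were used.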

Additional observations from a re-analysis of the deposited data

How the results depend on the processing

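Of the 50 values that the 5 scaling, probe set and offset alternatives gave for the PRC2 genes, 45 lay within 0.1 of the value as deposited. The other 5 were Eed with the mean of its probe sets (-0.30) and, after a second quantile normalization, Ezh2 (0.18), Jarid2 (-0.03), Rbbp7 (-0.03) and Suz12 (-0.26). The median of the 10 genes was -0.060 after that normalization, against -0.16 as deposited, and -0.26 after centring. The count of PRC2 genes past the size was 0 in both directions under every alternative but the size of log2 0.58, where 1 was lower. Over all genes the counts, 51 higher and 191 lower, were 568 and 904 at log2 0.58, 141 and 297 without a floor, 8 and 134 with the higher floor, 25 and 268 after centring and 10 and 108 with the offset. The cause of these shifts was not tested. No paired analysis was possible because each group had 1 array. With 1 array per group no value has a replicate error. RMA can understate differences of genes near the floor, which was not tested here.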
